A study of Homo sapiens with 6 samples.

Results

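The genes described here encode the constitutive subunits of the proteasome, compared between KMM1 cells transduced to express TAZ and KMM1 cells given the empty vector. KMM1 is an established human multiple myeloma cell line, and TAZ, encoded by WWTR1, is a transcriptional co-activator that binds TEAD factors. Members were the genes named PSMA, PSMB, PSMC or PSMD with a number, leaving out the inducible subunits PSMB8, PSMB9 and PSMB10. This gave 38 gene identifiers with 36 symbols, of 57290 gene identifiers in all: 18 of the core particle (PSMA and PSMB) and 20 of the regulatory particle (PSMC and PSMD).

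The proteasome degrades proteins tagged with ubiquitin. Its core particle is a barrel of stacked rings, in which outer alpha rings gate the entry and inner beta rings carry the peptide-cutting sites; the regulatory particle caps the barrel, binds and removes ubiquitin, and threads the unfolded substrate in. Plasma cells and myeloma cells make large amounts of secreted protein and lean heavily on this machine, and bortezomib, a drug used in myeloma, blocks its catalytic sites. When proteasome activity drops, the transcription factor encoded by NFE2L1 raises the subunit genes together through antioxidant response elements in their promoters.

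Poly(A) RNA was sequenced from 6 libraries taken 4 days after lentiviral transduction, 3 with TAZ and 3 with the empty vector WPI, called control here. The delivered TAZ and the vector are the only difference in treatment that the labels give; they do not say whether each library had a culture of its own, so the p-values measure only how far these samples scatter, and that scatter may be technical. Aligned depth ran from 1100 to 2033 megabases a library. In bulk RNA, fewer cells of a type and less RNA per cell cannot be told apart. WWTR1 stood at 2.35, 1.21 and 1.40 scaled TPM in the control libraries and at 365, 138 and 145 in the TAZ libraries, so every library matched its label. All 10 plasma cell markers found reached a mean of 1 TPM, with summed levels of 2442 to 3161 in control and 2857 to 3252 in TAZ libraries, 3 of them called lower. The sum joins opposite directions. IGJ was higher in every TAZ library (1166, 1224 and 1050 TPM in control, 1698, 2132 and 1691 in TAZ). IRF4, SDC1, SLAMF7, PRDM1 and POU2AF1 were lower in every TAZ library, and the other plasma cell markers overlapped. The 3 T cell markers summed to at most 1.14, and the 3 myeloid markers to 3.45 to 5.24 in control and 1.47 to 1.84 in TAZ libraries (1 lower). The 5 epithelial markers summed to 194 to 322 in control and 957 to 2293 in TAZ libraries (2 higher), and the 5 fibroblast markers to 2.09 to 2.78 and 37.5 to 44.4 (2 higher). KRT8 made up most of the epithelial sum in TAZ libraries (2217, 864 and 931 TPM). CDH1 was lower in every TAZ library (52.2, 57.0 and 36.9 TPM in control, 17.1, 28.4 and 30.1 in TAZ), and EPCAM overlapped. The part of these marker differences in the results below was not tested.

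The TPM of a gene (its share of all transcripts in a library, corrected for their length) is the sum over its transcripts, and libraries were brought to a common scale by the median of ratios. Differences are log2(scaled TPM + 1), TAZ minus control, with the standard error (SE) and the Benjamini-Hochberg adjusted p of limma over the 19390 genes whose mean reached 1 TPM, called the tested genes. A gene was called at an adjusted p under 0.05. Of the 38 members 35 were tested: the second identifiers of PSMA1 and PSMA2 were listed at 0 in every library, and PSMB11, a subunit made in the thymus, stayed at or under 0.216 TPM.

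No member was called. Over all genes 3.21% were, 2.25% higher and 0.964% lower, and among the 35 tested members 0 were called and 1 (PSMA4) had an unadjusted p under 0.05, against 18% of all genes. The libraries of the groups did not overlap for 3 members, PSMA5 being higher and PSMA4 and PSMB1 lower in TAZ, against 24.9% of all genes (10.1% higher, 14.8% lower). The 95% interval lay inside a 2-fold change either way for 22 of the 35, 7 of the core and 15 of the regulatory particle. For the rest a change of that size was within the error of 3 libraries against 3. In simulated data only 18% of genes changed 2-fold were called, so a change of that size would often be missed. In the TPM as deposited, without scaling, 0 of 35 members were again called (3.19% of all genes), and the groups were apart for 6 (21.4% of all genes): PSMA1, PSMA5, PSMA7, PSMB2 and PSMD1 were higher and PSMA4 lower.

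**Figure D1:**
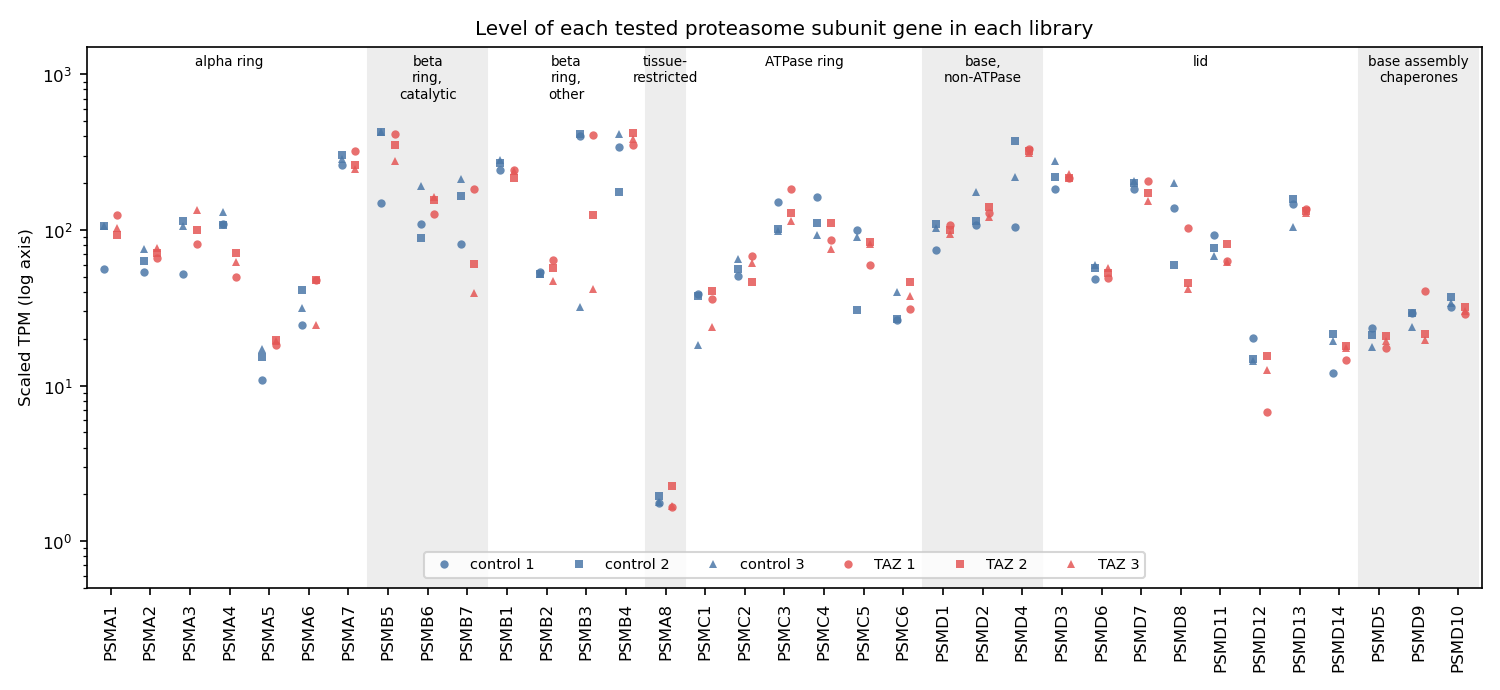
Scaled TPM (log axis) of the 35 tested members in each of the 3 control (blue) and 3 TAZ (red) libraries, grouped by role in the proteasome. Most members lie between 10 and 500 TPM with the groups intermixed, and PSMB3, PSMB7, PSMD8 and PSMD4 are widely scattered between libraries of 1 group.

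The alpha ring, built from PSMA1 to PSMA7, had 5 members above 0 and 2 below, with a median log2 difference of 0.26 and none called. Without control 1 the median was 0.00, with 4 above and 3 below; it was 0.45 without control 2, 0.15 without TAZ 2 and 0.11 without TAZ 3. PSMA7 was its most abundant member, at a mean of 281 TPM, and PSMA5 the least, at 16.8. PSMA5 stood at 10.8, 15.4 and 17.2 TPM in control and at 18.1, 19.8 and 19.4 in TAZ libraries. Every TAZ library was thus above every control library, by a log2 difference of 0.40 ± 0.20 (SE, n = 3 and 3; adjusted p = 0.352, limma), and 0.22 without control 1. PSMA1, PSMA2, PSMA3 and PSMA6 differed by 0.16 to 0.30 with overlapping libraries, and PSMA7 by -0.04.

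PSMA4 (ENSG00000041357, hg19 chr15:78832747-78841604, plus strand), an alpha subunit, came nearest to the threshold. It measured 109, 108 and 130 TPM in control and 49.9, 71.3 and 62.0 in TAZ libraries. The groups were well apart, with a log2 difference of -0.92 ± 0.19 (SE; 95% interval -1.38 to -0.46; adjusted p = 0.0634, limma). Its transcripts did not all differ in the same direction. ENST00000044462, a transcript of 9 exons and 1254 bases, held 92.4, 88.3 and 86.3% of the gene's TPM in control libraries and was listed at 0 in all 3 TAZ libraries, where 2 other transcripts were higher. ENST00000560217 stood at 3.99, 7.30 and 10.5 scaled TPM in control and 35.1, 55.2 and 47.1 in TAZ libraries, and ENST00000559934 at 4.08, 4.99 and 7.03 against 14.4, 15.0 and 14.1. Both of these end earlier in the same last exon.

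Of 9926 genes with 2 or more transcripts measured, 0.322% had a most abundant transcript that was listed at 0 throughout 1 group and held 50% or more throughout the other, and PSMA4 was the only 1 of the 33 members with such data. Depth by exon was compared next. StringTie gives a single mean depth per exon of a transcript, and these means were summed over the transcripts that include a stretch. Depth in parts of an exon therefore restates which transcripts were assigned reads, and is not depth measured base by base. It was not scaled by the median of ratios. The last exon of PSMA4 begins with 117 coding bases (hg19 chr15:78841132-78841248), whose deposited depth per 1000 aligned megabases was 137, 126 and 146 in control and 138, 215 and 196 in TAZ libraries. Over these bases no TAZ library was below the lowest control library. The 225 bases at the end of the exon (hg19 chr15:78841380-78841604), in the 3′ UTR, had 137, 126 and 146 in control and 0 in every TAZ library. Exon 5 had 24.8, 44.2 and 62.5 against 64.1, 84.4 and 81.6, and exons 6, 7 and 8 were listed at 0 in all 6 libraries. The coding bases shared by the long and short ends are shown because depth was assigned to them in all 6 libraries. They are from the GENCODE release 29 transcript of the same identifier.
PSMA4 exon 9, first 117 bases: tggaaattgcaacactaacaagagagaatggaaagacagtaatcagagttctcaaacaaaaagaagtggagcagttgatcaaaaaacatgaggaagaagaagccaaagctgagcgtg

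Over its whole exonic length PSMA4 differed in depth by -0.83 ± 0.16 (SE; adjusted p = 0.0588, limma). A further measure kept only evenly covered exon segments, those where the lowest library had at least 5% of the depth of the highest, so that any segment at 0 in a library is dropped by construction. On it PSMA4 differed by -0.06 ± 0.17 (adjusted p = 0.872, limma). With only the most abundant transcript kept, the one listed at 0 in the TAZ libraries, the value was -6.68 (adjusted p = 7.48e-05, limma). These values on even segments and on 1 transcript follow from which stretch each measure drops or keeps. They neither test the difference nor place it by base within the exon. Both depth measures were added after the data had been seen. Whether the transcripts' ends truly differ between the groups was not tested.

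The catalytic beta subunits are PSMB5, PSMB6 and PSMB7, which cut after hydrophobic, acidic and basic residues. PSMB5, the main target of bortezomib, stood at 148, 429 and 424 TPM in control and at 413, 349 and 279 in TAZ libraries. Control 1 lay apart from the other five, and the groups overlapped (log2 difference 0.19 ± 0.44 SE, adjusted p = 0.848, limma). Without control 1 the difference was -0.31, of the opposite sign. PSMB6 stood at 110, 88.4 and 191 TPM in control and at 127, 156 and 164 in TAZ libraries. All 3 TAZ libraries lay within the control range, with a difference of 0.27 ± 0.31 (SE; adjusted p = 0.673, limma), and 0.03 without control 2 or 0.58 without control 3.

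PSMB7, on the minus strand, stood at 81.0, 166 and 211 TPM in control and at 184, 60.2 and 39.5 in TAZ libraries. TAZ 1 lay with the upper control libraries and the other two below all of them (log2 difference -0.89 ± 0.62 SE, adjusted p = 0.488, limma). The difference was -1.52 without TAZ 1 and -0.43 without TAZ 3. Depth by exon was uneven in the same way. Its last exon, exon 8 (hg19 chr9:127115745-127115988), had 164, 223 and 230 per 1000 megabases in control 2, control 3 and TAZ 1 and under 1 in the other 3 libraries. Exon 7 had 168, 222 and 260 in control and 194, 183 and 119 in TAZ libraries, with overlap. Exon 4 had 91.0 in control 1 and was listed at 0 in the other five libraries.

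Among the other beta subunits, PSMB1 was lower in every TAZ library (245, 269 and 280 TPM in control, 242, 214 and 241 in TAZ), by -0.19 ± 0.16 (SE; adjusted p = 0.568, limma). PSMB2 differed by 0.08. PSMB4 had the highest mean level of all members, 347 TPM, and stood at 341, 174 and 412 in control and 353, 417 and 386 in TAZ libraries. Control 2 was its low library, and the difference of 0.40 ± 0.33 (SE; adjusted p = 0.555, limma) was 0.04 without it and 0.65 without control 3.

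PSMB3, another non-catalytic beta subunit, was chosen for description after its values were seen, because its SE of 1.21 was the highest of the members. It stood at 404, 412 and 32.1 TPM in control and at 409, 125 and 41.6 in TAZ libraries, so that high and low libraries occurred in both groups (log2 difference -0.44, 95% interval -3.33 to 2.45, adjusted p = 0.872, limma). The scatter lay in 2 of its 6 exons. Exon 2 (hg19 chr17:36909403-36909587) had a depth of 823, 578 and 0 per 1000 megabases in control and 576, 0 and 0 in TAZ libraries, an all-or-none pattern that did not follow the groups. Exon 4 (hg19 chr17:36916684-36916861) had 0.254, 226 and 0 in control and 203, 169 and 0 in TAZ libraries. Exon 5 (hg19 chr17:36918664-36918758) was covered in every library, with 74.4, 115 and 126 in control and 126, 246 and 195 in TAZ libraries. Exons 1, 3 and 6 were listed at 0 in all 6. Exons 2, 4 and 5 are coding throughout, and no run of 50 bases in any of the 6 exons occurs unchanged in a GENCODE release 29 transcript of another gene. The covered exons are shown from the release 29 transcript with the same exon lengths.
PSMB3 exon 2: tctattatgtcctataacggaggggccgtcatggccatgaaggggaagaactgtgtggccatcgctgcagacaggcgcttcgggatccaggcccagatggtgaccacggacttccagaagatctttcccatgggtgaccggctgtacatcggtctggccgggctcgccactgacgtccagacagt
PSMB3 exon 4: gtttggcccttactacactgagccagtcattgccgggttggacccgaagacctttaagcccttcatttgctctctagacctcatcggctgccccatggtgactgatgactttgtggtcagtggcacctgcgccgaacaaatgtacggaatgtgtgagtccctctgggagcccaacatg
PSMB3 exon 5: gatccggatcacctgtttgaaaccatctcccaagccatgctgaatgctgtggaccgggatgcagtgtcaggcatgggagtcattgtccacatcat

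Over its evenly covered segments PSMB3 differed by 0.71 ± 0.27 (SE, adjusted p = 0.205, limma), the opposite sign to its TPM, and was not called by either measure. These segments were 455 of its 1179 exonic bases, and most of their depth lay in exon 5. As they were kept for even depth between libraries, a smaller error is in part built in. On the segment measure 0 of 35 members were called (3.44% of all genes), and the groups were apart for 2, PSMA5 and PSMB3, both higher (25.6% of all genes). PSMB7 differed by -0.54 ± 0.27 (adjusted p = 0.315) and PSMB5 by -0.23 ± 0.17 (adjusted p = 0.482) on the same measure. PSMA8, a testis subunit, stood between 1.65 and 2.28 TPM in the 6 libraries and differed by 0.01.

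**Figure D2:**
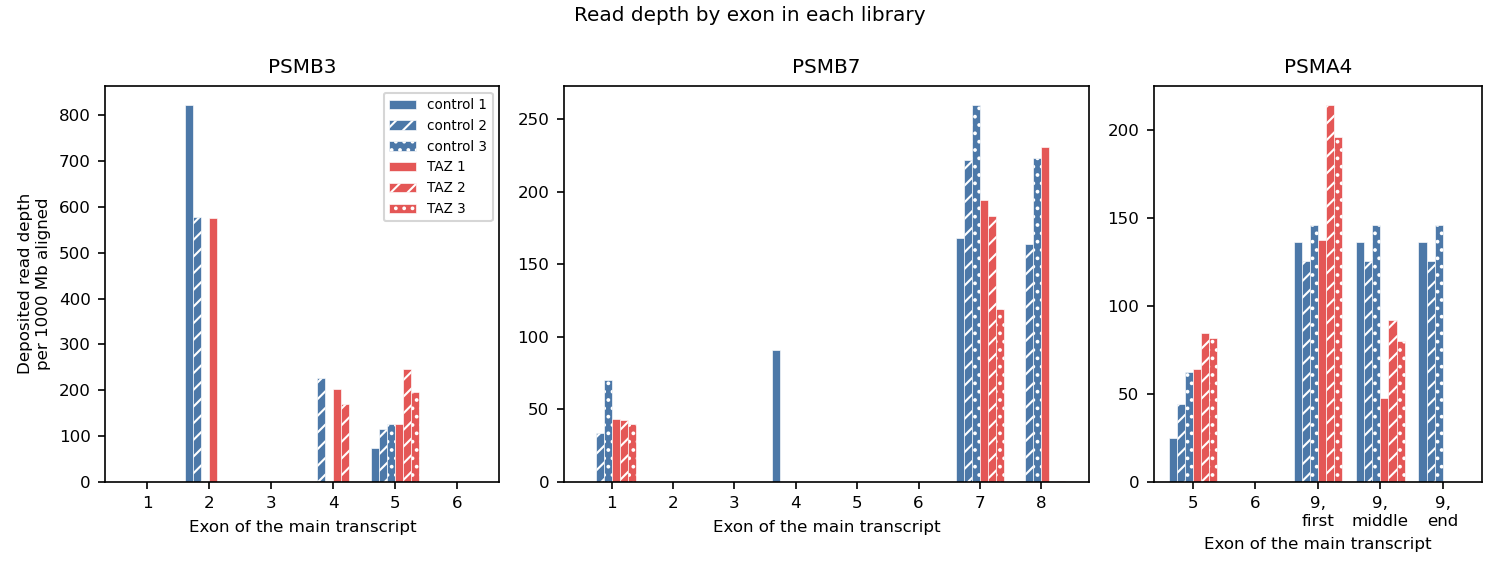
Deposited read depth per 1000 aligned megabases by exon of the main transcript of PSMB3, PSMB7 and PSMA4, in each control (blue) and TAZ (red) library; for PSMA4, exons 5, 6 and the 3 parts of exon 9 are drawn. PSMB3 exon 2 is at 823, 578 and 576 in 3 libraries and 0 in 3. The end of PSMA4 exon 9 has assigned depth in the control libraries and 0 in the TAZ libraries. Parts of an exon carry the exon-wide means of the transcripts that include them.

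Exons that were deep in some libraries and listed at 0 in others were common to many members. A segment was called deep at 50 or more per 1000 megabases in some library. Of 27 members with a deep segment, 16 (59.3%) had at least 1 that was at 0 in at least 1 library, against 38.9% of 3353 genes. These were 9 of 11 in the core particle and 7 of 16 in the regulatory particle. Counted by segment, the shares were 23.2% of 285 deep segments of members and 19.8% of 20955 of all genes, and counted by bases of those segments 21.7% and 12.1%. By bases the core particle stood at 33.7% and the regulatory particle at 14.5%. In the 35 main transcripts that could be matched to release 29, 75 of 295 exons (25.4%) had a depth under 1 in all 6 libraries, with a median length of 108 bases against 127.5 for the rest. The median share of 50-base runs found in other genes was 0% for both. The main transcript's share of the gene ranged over more than 50 percentage points between libraries for 10 of 33 members (30.3%), against 37.7% of all such genes. The groups did not overlap in that share for PSMA4, lower in TAZ, and PSMB5, PSMD4 and PSMD5, higher, which is 12.1% of the 33 members against 10.4% of all such genes.

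The regulatory particle's ATPase ring, PSMC1 to PSMC6, unfolds the substrate. It had 5 members above 0 and 1 below, with a median of 0.15, none called and no member whose groups were apart; over evenly covered segments 2 of the 6 were above 0. PSMC6 stood at 26.2, 27.0 and 39.7 TPM in control and at 31.2, 46.3 and 37.4 in TAZ libraries, overlapping, with a difference of 0.30 ± 0.24 (SE; adjusted p = 0.535, limma), and 0.16 without TAZ 2. PSMC4 was the member below 0, at -0.40, and the other four lay between 0.03 and 0.28. PSMC1 may be affected by its pseudogene PSMC1P1, which was listed at 242% of the mean TPM of PSMC1, so reads may be split between them. PSMC1P5 stood at 129% of PSMC1, and PSMA2P3 at 113% of PSMA2. Of 28 pseudogenes of members, 14 had a mean of at least 1 TPM as deposited and 0 were called.

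The base also holds the scaffolds PSMD1 and PSMD2 and the ubiquitin receptor PSMD4. PSMD1 stood at 74.7, 109 and 103 TPM in control and at 108, 100 and 94.2 in TAZ libraries. PSMD2 stood at 108, 115 and 177 against 128, 141 and 122. Both overlapped, with differences of 0.09 ± 0.20 and 0.00 ± 0.23 (SE; adjusted p = 0.841 and 0.995, limma). PSMD4 had the most positive difference of all members, 0.66 ± 0.44 (adjusted p = 0.468, limma). Its TAZ libraries were close together at 333, 322 and 313 TPM, inside control libraries that spread over 104, 371 and 218. Without control 1 the difference was 0.18, and without control 2 it was 1.09.

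All 8 lid members (PSMD3, PSMD6, PSMD7, PSMD8, PSMD11, PSMD12, PSMD13 and PSMD14) were below 0 after scaling, with a median of -0.10 and none called, but 6 of the 8 were above 0 in the TPM as deposited, 4 with upper quartile scaling, 5 with quantile normalization and 2 over evenly covered segments. The sign of the lid therefore rests on the scaling, and 1, 2, 3 and 2 of the 8 were above 0 without control 1, control 2, control 3 and TAZ 1. PSMD14, the deubiquitinase that removes ubiquitin chains from the substrate, stood at 12.0, 21.3 and 19.2 TPM in control and at 14.6, 17.9 and 17.5 in TAZ libraries. The TAZ libraries fell inside the control range, with a difference of -0.04 ± 0.24 (SE; adjusted p = 0.950, limma). PSMD12, a structural lid subunit, stood at 20.3, 14.7 and 14.4 TPM in control and 6.78, 15.6 and 12.6 in TAZ libraries. TAZ 1 alone was far below the rest, with a difference of -0.52 ± 0.31 (adjusted p = 0.426, limma), and -0.21 without it.

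PSMD8, also a lid subunit, had the most negative difference of the members, -1.02 ± 0.53 (SE; adjusted p = 0.364, limma). It stood at 139, 60.0 and 202 TPM in control and at 103, 45.5 and 41.8 in TAZ libraries. TAZ 1 lay inside the control range and the other two below it, and the difference was -0.65 without control 3. Over evenly covered segments the difference was -0.23 ± 0.23 (adjusted p = 0.623). PSMD3, PSMD6, PSMD7, PSMD11 and PSMD13 differed by -0.20 to -0.02, each with overlapping libraries. The base assembly chaperones PSMD5, PSMD9 and PSMD10 help build the ATPase ring and are no part of the finished particle. They differed by -0.17 to -0.07 with overlapping libraries.

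**Figure D3:**
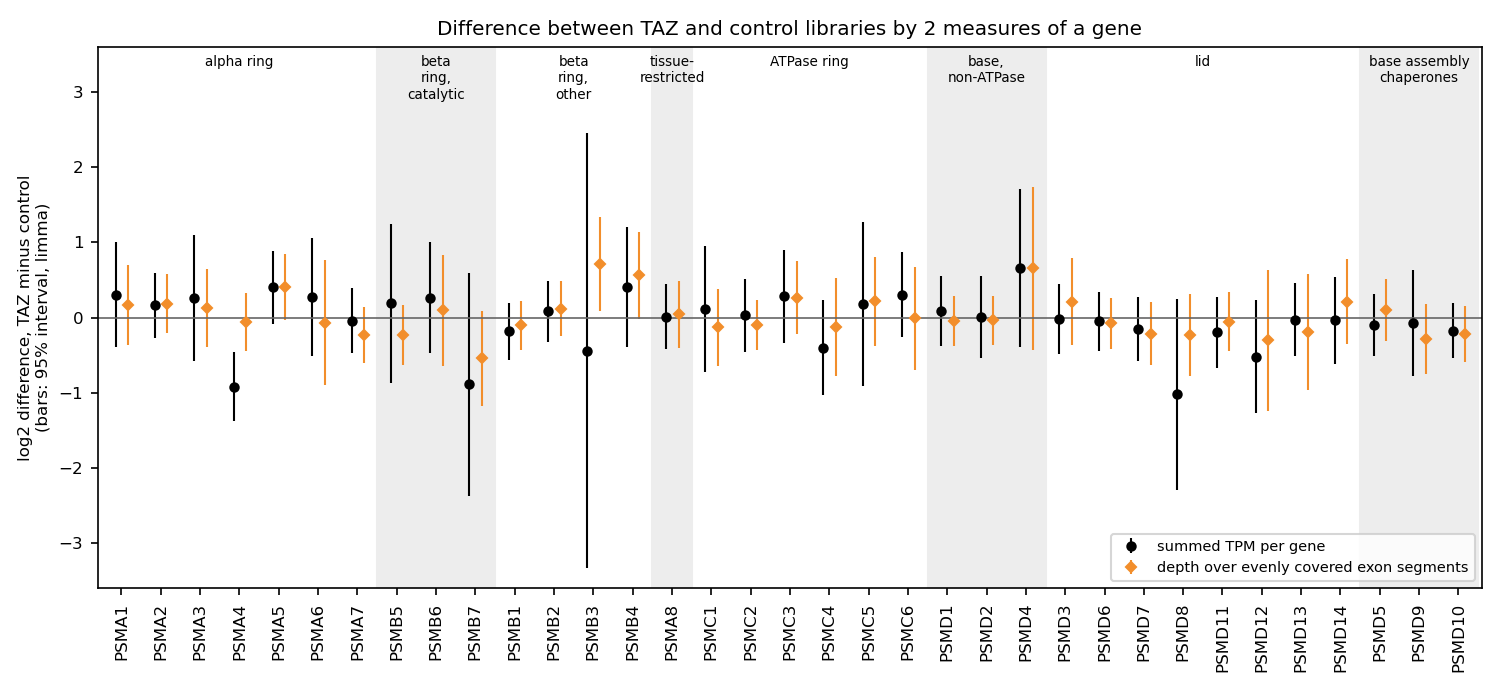
The log2 difference, TAZ minus control, with its 95% limma interval for each tested member, from summed TPM (black) and from depth over evenly covered exon segments (orange). The second measure drops any segment at 0 in a library. PSMA4 moves from -0.92 to -0.06 and PSMD8 from -1.02 to -0.23 between the measures. The interval of PSMB3 narrows from -3.33 to 2.45 on the first to 0.09 to 1.33 on the second. Segments where the lowest library fell under 5% of the highest were dropped, so a narrower interval is in part built in. For some members, among them PSMA6, PSMC6, PSMD4 and PSMD12, the interval was wider on the second measure.

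The core and the regulatory particle were then compared. The median log2 difference was 0.16 over the 15 core members and -0.03 over the 20 regulatory members, against -0.05 over all tested genes and -0.13 over the 9272 whose mean reached 10 TPM. The core median was 0.00 without control 1, 0.07 without control 2, 0.06 without TAZ 1 and 0.26 without control 3. Core members were 10 above and 5 below 0, and regulatory members 8 and 12. Of all tested genes 8766 were above 0 and 10624 below, and of those whose mean reached 10 TPM 3531 and 5741. In the TPM as deposited regulatory members were instead 17 above and 3 below. Scaling moved every median: in the TPM as deposited the core median was 0.42, the regulatory median 0.22 and that of all genes 0.17. The gap between the particles was 0.19 after scaling and 0.20 before it. A related quantity was taken in each library, the median centred log2 level of core members minus that of regulatory members. It was -0.35, 0.03 and 0.07 in control and 0.16, 0.04 and -0.02 in TAZ libraries, with overlap. Control 1 alone was far below the rest. The quantity averaged -0.08 in control and 0.06 in TAZ libraries, and its pooled SD between libraries of a group was 0.18. The gap between the median log2 differences was 0.08, 0.10 and 0.08 without control 1, control 2 or TAZ 1, and 0.32 without control 3.

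Summed over members, the core particle held 1951, 2346 and 2358 scaled TPM in control and 2504, 2050 and 1865 in TAZ libraries. The regulatory particle held 1725, 1856 and 1926 against 1914, 1827 and 1693. Both overlapped between groups. The ratio of the core sum to the regulatory sum was 1.13, 1.26 and 1.22 in control and 1.31, 1.12 and 1.10 in TAZ libraries, with the TAZ libraries at both ends (mean 1.21 ± 0.07 and 1.18 ± 0.11, SD, n = 3 each). As deposited, all members together made up 0.365, 0.397 and 0.374% of a library's TPM in control and 0.425, 0.464 and 0.437% in TAZ libraries, without overlap. After scaling the sums were 3676, 4203 and 4284 against 4418, 3877 and 3558, with overlap, so the higher share in the TAZ libraries depends on the scaling.

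**Figure D4:**
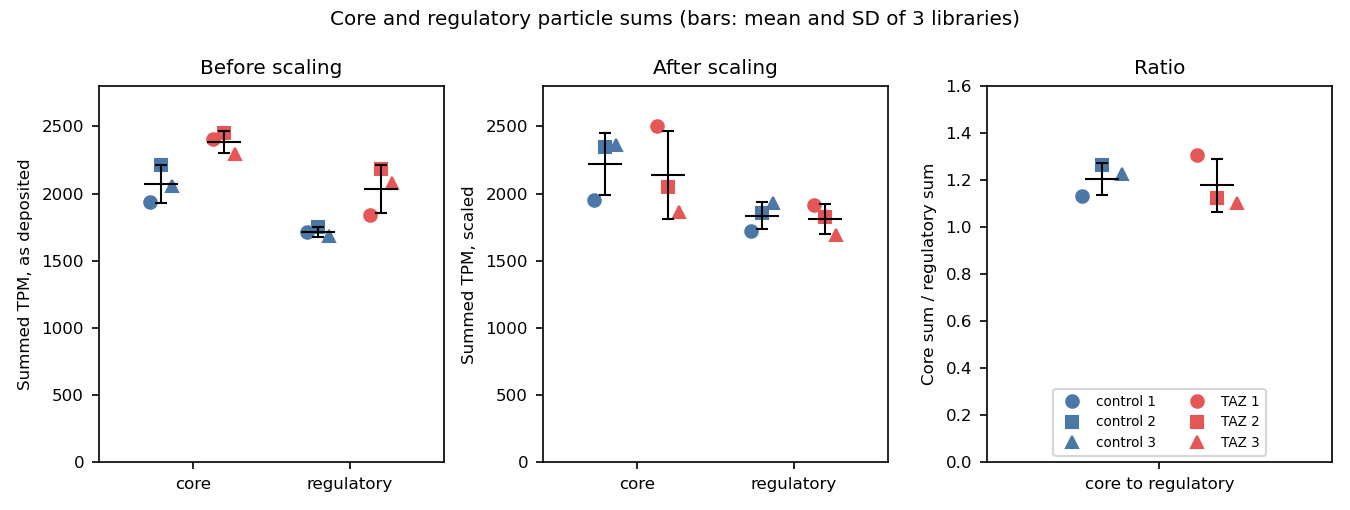
Summed TPM of the core and regulatory members in each library as deposited and after scaling, and the ratio of the sums (points: libraries; black bars: mean and SD of 3 libraries). The TAZ libraries are the higher ones as deposited and overlap with the control libraries after scaling, and the ratios lie between 1.10 and 1.31.

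The genes around the proteasome were read from a separate list of 38, all tested. It had 1 gene called higher and 0 lower, against 3.21% of all genes called, with a median of -0.09. The called gene was PSME1, a subunit of the activator that binds the core particle in place of the regulatory one, at 42.5, 43.1 and 57.1 TPM in control and 96.6, 126 and 112 in TAZ libraries. Its difference was 1.22 ± 0.19 (SE; adjusted p = 0.0243, limma), and it was no longer called with the replicate block (adjusted p = 0.103), with all genes tested (adjusted p = 0.0833), over evenly covered segments (0.75, adjusted p = 0.191), or without control 1, control 2, TAZ 2 or TAZ 3 (adjusted p = 0.0775 to 0.127). NFE2L1, the regulator of the subunit genes, stood at 303, 138 and 219 TPM in control and 155, 137 and 128 in TAZ libraries, with a difference of -0.59 ± 0.30 (adjusted p = 0.356, limma) and overlap. POMP, a chaperone of core assembly (-0.13), ADRM1, a ubiquitin receptor of the base (-0.34), PSMF1, an inhibitor (0.31), and PSME3, a nuclear activator (-0.01), were not called. Of the 6 assembly chaperones 5 were below 0 and 1 above. PSMG1, another of them, stood at 22.7, 27.0 and 41.4 TPM in control and 13.1, 9.35 and 11.7 in TAZ libraries. Its difference was -1.31 ± 0.26 (SE, adjusted p = 0.0538, limma), and it was not called.

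The inducible subunits replace the catalytic ones in the immunoproteasome. PSMB9 was called higher (2.02 ± 0.32, adjusted p = 0.0234, limma) and PSMB8 (0.98, adjusted p = 0.0752) and PSMB10 (0.63, adjusted p = 0.615) were not. Unlike for PSME1, whether PSMB9 stayed called in the alternatives is not given here. The ratio of PSMB9 to PSMB6, the subunit it replaces, was 0.279, 0.518 and 0.351 in control and 1.86, 1.14 and 0.954 in TAZ libraries, without overlap. The ratio of PSMB8 to PSMB5 (0.712, 0.253 and 0.270 against 0.663, 0.640 and 0.596) overlapped through control 1 alone, where PSMB5 was low. PSMB8 itself was higher in every TAZ library (105.5, 108.5 and 114.2 TPM in control, 273.8, 223.5 and 166.2 in TAZ). The ratio of PSMB10 to PSMB7 (0.105, 0.275 and 0.0752 against 0.260, 0.408 and 0.536) overlapped.

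Promoters were searched because the subunit genes are known to share regulatory elements. Of the 36 symbols 31 matched RefSeq promoters (GRCh38.p14), giving 37 windows of the 250 bases before a start. PSMA7, PSMB1, PSMB6, PSMB7 and PSMD4 had no window and were not searched, so the particles were not searched equally. The antioxidant response element, searched as TGACNNNGC on both strands, occurred in 7 of 37 windows (18.9%), against 10.9% of 35116 windows of all genes. CCAAT occurred in 16 (43.2%) against 32%, and GGAATG, the letters bound by TEAD factors, in 3 (8.11%, PSMA4, PSMB5 and PSMC6) against 11.9%. The antioxidant letters were in PSMA4 and PSMB3 of the core and in PSMC5, PSMD3, PSMD5, PSMD9 and PSMD12 of the regulatory particle. The core windows, at chr15:78540536-78540785 and chr17:38752491-38752740 on the plus strand, are shown with the antioxidant letters in capitals; for PSMA4 this is 1 of 3 windows. Matches to the other motifs stay in lower case: the PSMA4 window holds 1 CCAAT and 1 GGAATG, and the PSMB3 window 2 CCAAT. Neither gene was called.
PSMA4 promoter: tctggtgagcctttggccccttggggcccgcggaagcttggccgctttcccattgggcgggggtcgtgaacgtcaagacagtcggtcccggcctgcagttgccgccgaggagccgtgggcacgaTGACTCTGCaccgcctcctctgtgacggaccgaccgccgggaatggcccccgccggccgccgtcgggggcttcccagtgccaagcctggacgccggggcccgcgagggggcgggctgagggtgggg
PSMB3 promoter: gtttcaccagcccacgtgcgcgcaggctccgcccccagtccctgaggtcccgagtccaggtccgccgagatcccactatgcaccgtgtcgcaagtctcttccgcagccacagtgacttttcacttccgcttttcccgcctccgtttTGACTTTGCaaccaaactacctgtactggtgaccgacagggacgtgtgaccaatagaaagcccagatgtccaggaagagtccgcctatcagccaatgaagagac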

How the data were processed

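The authors deposited 1 StringTie transcript file per library, which gives TPM, FPKM and read coverage per transcript and coverage per exon, per the file headers. Reads were processed with STAR 2.3.0, Bowtie2 2.0.0 and StringTie 1.3.3b on hg19, per the submitters' processing notes, in an order and with an annotation release not given in the sources used here. TPM were summed per gene identifier, scaled by the median of ratios, and tested with limma 3.58.1 (trend and robust) in R 4.3.3 on log2(scaled TPM + 1) for genes whose mean reached 1 TPM. The fit was tested on simulated data, in which 18% of 2-fold changed genes and 82% of 4-fold changed genes were recovered. Coverage was divided by the aligned megabases of the library. As StringTie assigns it to transcripts, a depth of 0 means only that none was assigned. Depths given by exon were not scaled by the median of ratios, unlike the TPM beside them. The TPM were divided by 0.994, 0.944 and 0.873 in control and by 0.962, 1.196 and 1.229 in TAZ libraries. Depth in reads is not known from these values, so no counting interval is given. The test with a log2 pseudocount of 1 understates changes of low genes.

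Members described with values in every library were each member called, PSMB5, PSMB6, PSMB7, PSMD14, PSMD4, PSMD1 and PSMD2, and the 2 most positive and 2 most negative of each particle; PSMB3 and PSMB1 were added after their values were seen. From the list of associated genes, called genes, NFE2L1, POMP, ADRM1, PSMF1 and PSME3 are named, and PSMG1 was added after its values were seen. The members and lists were chosen with earlier results of these data known. Alternatives were other scalings, pseudocounts, filters, FPKM, array weights, the replicate number as a block, leaving out each library, pseudogenes added, the most abundant transcript alone, and 2 depth measures chosen after seeing the data.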

Additional observations from a re-analysis of the deposited data

How the results depend on the processing

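No member was called in 19 of the 21 alternatives. With limma's array weights, whose fit warned that it had not converged, 4 core members (PSMA4, PSMB4, PSMB6 and PSMB7) and 1 regulatory member (PSMC6) were called, among 5274 of all genes (27.2%) and 9 associated genes, and the core and regulatory counts were otherwise 0 except for 1 core member, PSMA4, with only the most abundant transcript (452 of 19035 genes, 2.37%). The median of the core members was 0.42 without scaling, 0.26 with upper quartile scaling, 0.33 with quantile normalization, 0.08 with pseudogenes added, 0.10 over even segments, 0.00 with array weights and 0.00 (without control 1) to 0.26 (without control 3) when each library was left out; that of the regulatory members was 0.22 without scaling, 0.0667 with upper quartile scaling, 0.13 with quantile normalization and -0.11 with array weights. The gap between the medians kept its sign, at 0.08 to 0.32 when each library was left out, 0.13 with pseudogenes added and 0.11 with array weights. Over all genes, 352 were called with no filter, 236 with the replicate block and 278 to 774 with each library left out, moving by over 1.5 times without control 1, control 2, TAZ 2 or TAZ 3. Associated genes called were 0 with no filter, with the replicate block and over even segments, 2 over the exonic length, and 0 to 2 with each library left out. The cause was not tested. Of 273 pairs of a named member and an alternative, 23 had the opposite sign. Many named members were chosen as the most positive or most negative, so this count does not stand for all members. Regulatory members alone went from 8 above and 12 below 0 to 17 and 3 in the TPM as deposited. The numbers were not taken as pairs, since the labels do not say that equal numbers share a culture or day. Same-numbered libraries did not deviate together (correlations 0.00401, -0.0244 and -0.0549), and the block called 0 members. With 3 libraries a group, a 2-fold change lay outside the 95% interval for 22 of 35 members.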
